A study of Mus musculus with 6 samples.

Results

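The genes described here encode the RNA polymerases, the general transcription factors and Mediator, the machinery that starts transcription in every nucleated cell. They were taken from the gene table by symbol: every gene whose symbol begins with Polr followed by a polymerase number, Taf followed by a digit, Gtf2, Gtf3 or Med followed by a digit, and Tbp itself. The rule found 105 of 15398 genes, and 101 of them had enough reads to be tested. It takes symbols only, so subunits with other names were placed in separate lists.

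RNA was sequenced from bEND.3 cells, an established mouse line that the labels name and that is known as a brain endothelial line. In 3 libraries the cells stably expressed circSlc17a5, a circular RNA that carries the name of the gene Slc17a5. The other 3 libraries came from stable cells given the corresponding empty vector. The sources used here do not say whether a stable line was 1 clone or a pool, nor whether replicates were separate cultures, so every p measures only the spread between these libraries, which may be technical.

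As background, RNA polymerase I transcribes the large ribosomal RNA precursor, polymerase II transcribes messenger RNAs, and polymerase III transcribes transfer RNAs, 5S ribosomal RNA and other small RNAs. TATA-binding protein (TBP) serves all 3, joined to different partners: SL1 for polymerase I, the TBP-associated factors (TAFs) of TFIID for polymerase II, and TFIIIB for polymerase III. TFIIA, TFIIB, TFIIE, TFIIF and TFIIH build the polymerase II complex on the promoter, TFIIIA and TFIIIC bind inside polymerase III genes, and Mediator links gene-specific regulators to polymerase II.

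The promoters of 4 genes of the machinery are shown because they belong to members that stand on both sides of the comparison below. Polr2a, on chromosome 11, encodes the catalytic subunit of polymerase II, and Taf9, on chromosome 13, a TFIID subunit. Both were higher in circSlc17a5 cells. Polr2f, on chromosome 15, encodes a subunit of all 3 polymerases, and Taf13, on chromosome 3, another TFIID subunit. Both were lower in circSlc17a5 cells. The sequences are RefSeq windows of GRCm38.p6, written 5′ to 3′ on the gene's own strand, from 250 bases before the annotated start through 50 bases after it. Capitals mark matches on either strand. The letters searched were TATAAA for the TATA box, CCAAT for the CCAAT box, GGGCGG for the GC box, CCGGAAG for a core bound by ETS-family factors and AAGATGGCG for a core bound by YY1. The 4 genes were chosen after their values were seen.
Polr2a promoter, minus strand, chr11:69758584-69758883: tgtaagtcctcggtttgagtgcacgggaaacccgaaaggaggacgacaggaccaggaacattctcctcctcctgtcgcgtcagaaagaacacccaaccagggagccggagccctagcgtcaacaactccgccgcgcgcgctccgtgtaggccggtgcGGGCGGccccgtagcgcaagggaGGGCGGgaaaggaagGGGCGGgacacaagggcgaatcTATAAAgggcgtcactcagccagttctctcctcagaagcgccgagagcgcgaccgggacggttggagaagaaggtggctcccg
Taf9 promoter, plus strand, chr13:100651093-100651392: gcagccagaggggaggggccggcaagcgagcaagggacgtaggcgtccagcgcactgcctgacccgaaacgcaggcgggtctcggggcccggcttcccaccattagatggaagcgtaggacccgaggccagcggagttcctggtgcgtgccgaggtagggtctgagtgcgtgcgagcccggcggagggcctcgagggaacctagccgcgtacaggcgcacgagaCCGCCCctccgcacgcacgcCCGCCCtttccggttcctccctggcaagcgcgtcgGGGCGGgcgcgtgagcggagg
Polr2f promoter, plus strand, chr15:79141075-79141374: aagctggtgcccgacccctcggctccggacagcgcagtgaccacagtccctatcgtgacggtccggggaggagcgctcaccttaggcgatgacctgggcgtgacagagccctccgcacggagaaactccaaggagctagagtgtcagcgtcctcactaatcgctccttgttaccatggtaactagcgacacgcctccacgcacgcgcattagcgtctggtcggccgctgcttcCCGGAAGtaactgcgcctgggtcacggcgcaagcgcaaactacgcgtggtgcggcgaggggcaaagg
Taf13 promoter, plus strand, chr3:108571449-108571748: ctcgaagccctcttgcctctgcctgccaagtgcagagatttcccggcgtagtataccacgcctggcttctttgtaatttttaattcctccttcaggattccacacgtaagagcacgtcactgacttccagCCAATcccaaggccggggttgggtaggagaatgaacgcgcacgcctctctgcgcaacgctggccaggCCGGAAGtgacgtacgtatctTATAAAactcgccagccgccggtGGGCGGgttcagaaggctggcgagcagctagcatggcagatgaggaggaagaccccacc

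In the Polr2a window the TATAAA match began 33 bases before the start, behind 3 GC boxes. The Taf9 window held GC boxes and none of the other letters. Polr2f had an ETS match 17 bases before its start and no TATAAA. Taf13 had a TATAAA match 32 bases before its start, an ETS match 53 bases before it, a CCAAT match 120 bases before it and a GC box 9 bases before it. A match is a match of letters and says nothing of binding.

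Windows were found for 90 of the 105 genes, 106 windows in all. CCGGAAG stood in 34.0% of these windows, against 18.0% of the windows of all tested genes and 8.86% of all 32851 windows. AAGATGGCG stood in 6.6% of the members' windows, 3.0% of the tested genes' and 1.4% of all windows. TATAAA stood in 12.3%, 6.96% and 13.6% of those windows, and the GC box in 62.3%, 63.1% and 35.7%. CCAAT stood in 32.1% of the members' windows, 38.5% of the tested genes' and 37.4% of all windows. The 7 windows of genes that rose all held a GC box, and 6 of the 15 windows of genes that fell did. CCGGAAG was in 1 of the 7 and in 9 of the 15. Some genes have several windows: the 7 belong to 6 genes and the 15 to 11. Both Gtf3c6 windows hold the same CCGGAAG site, which is counted in each. No test was made of these shares.

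Library totals lay between 16848513 and 17600230 counts. Of 11722 genes tested with edgeR's quasi-likelihood F test, 1386 rose and 1198 fell (Benjamini-Hochberg adjusted p, threshold 0.05). Their median log2 fold change, uncalled genes included, was -0.002. The host gene Slc17a5 had 605, 495 and 492 counts in circSlc17a5 libraries 1 to 3, against 391, 358 and 380 in the controls; gene-level counts do not separate circular from linear RNA. Control replicate 1 stood apart: on the first principal component it lay at 5.5, against 34 and 21.5 for the other controls and -26.4 to -15.6 for the circSlc17a5 libraries. Of 10 endothelial markers 9 were in the table, 8 of these had a mean under 1 FPKM (Pecam1 0.172, Cdh5 0.398, Kdr 0.0183), and the list's summed CPM (TMM-normalised counts relative to the library total) was 14.5 to 16.5 in circSlc17a5 cells and 12.9 to 15.5 in control cells. Egfl7 was the exception, at 13.7 FPKM with 186 to 241 counts in each library, and made up most of that sum. The other 8 endothelial markers in the table were thus at or near 0, which goes against the endothelial description of the line. Of 5 simple-epithelium markers Krt8, Krt18 and Krt19 averaged 403, 1000 and 384 FPKM while Epcam (0.858) and Cdh1 (0.0183) were under 1 FPKM; 4 were tested, 1 risen and 1 fallen, with summed CPM of 1771.6 to 1976.9 in circSlc17a5 and 1956.2 to 2523.9 in control cells. Of 7 mural and fibroblast markers 5 were tested and 1 rose, with sums of 16.7 to 71.1 CPM in circSlc17a5 and 21.2 to 122.7 CPM in control cells. Several of them were high in circSlc17a5 replicate 2 and control replicate 1: Col1a2 had 7, 257 and 77 counts in circSlc17a5 libraries, against 508, 3 and 0 in control libraries. Of 4 leukocyte markers 2 were in the table and 1 was tested, Cd68 at 340 FPKM, not called, while Ptprc was at 0.00167 FPKM; the list's sums were 333.7 to 392.8 CPM in circSlc17a5 cells and 274.8 to 334.9 CPM in control cells. The part of these markers in the results was not tested.

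Over the whole machinery, 6 genes rose and 11 fell in circSlc17a5 cells, and 84 were not called. The risen genes were Polr2a, Taf9, Gtf3c3, Gtf3c4, Med14 and Med13l. The fallen genes were Polr2f, Polr2h, Taf11, Taf13, Gtf2a1, Gtf2f1, Gtf2f2, Gtf2h4, Gtf2ird2, Gtf3a and Gtf3c6. That is 16.8% of the 101 tested members, against a background of 22.0% of all tested genes; 5.94% of the members rose, against 11.8%, and 10.9% fell, against 10.2%. The share called was thus below the background for the genes that rose and near it for those that fell. An unadjusted edgeR p under 0.05 was found in 41 of the 101 members. The share of all genes under that limit was not computed, so such counts per complex have no background beside them.

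Changes were small. The log2 fold changes, circSlc17a5 over control, ran from -0.53 (Gtf2ird2) to 0.52 (Med13l), with a median of -0.07; 38 members were higher and 63 lower, beside 5810 higher and 5912 lower over all genes. With values scaled per length (FPKM) the median was 0.01, with 53 higher and 48 lower, but that scaling moved all genes upward, to a median of 0.05 with 6898 higher and 4824 lower. With counts adjusted in each library for length and GC content, the members' median was 0.002, with 51 higher and 50 lower. Of all 11504 genes in that fit 5751 were higher and 5753 lower. Without that adjustment, the 2 groups of libraries did not overlap in 41 members, 40.6% of those tested, against 42.6% of all genes. Of these 14 were higher and 27 lower in circSlc17a5 cells; of all genes 2561 were higher and 2433 lower. In bulk RNA, fewer cells that express a gene and less RNA per cell cannot be told apart.

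**Figure D1:**
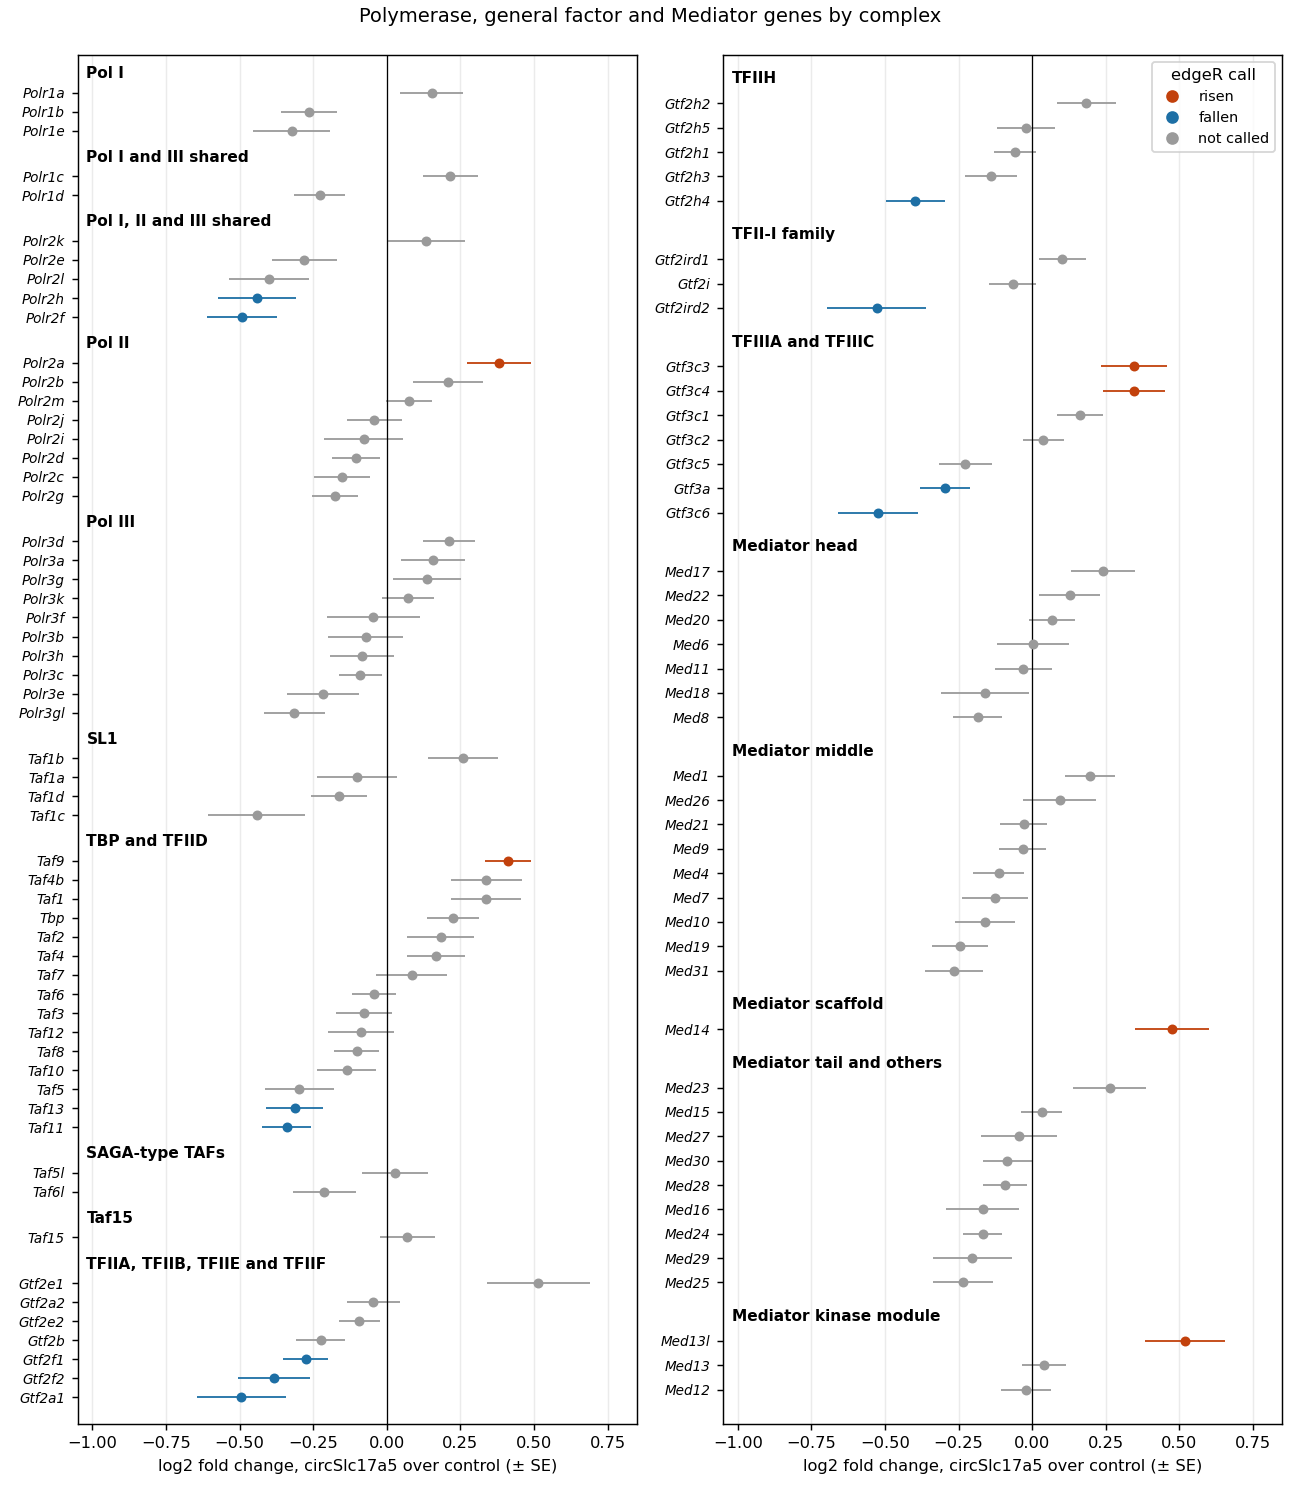
Log2 fold change of each tested member, circSlc17a5 over control (points, with bars of 1 SE from edgeR; 3 libraries a group), grouped by complex. Without adjustment for length and GC content, as here, TFIID and the TFIIIA and TFIIIC group hold both risen and fallen members. All values lie between -0.53 and 0.52.

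The subunits that the 3 polymerases share held 2 of the fallen genes and no risen one. Of the 5 shared subunits measured, 4 were lower in circSlc17a5 cells. Past the threshold were 2, 40.0%, against 22.0% of all tested genes. The median log2 fold change was -0.40 (with FPKM -0.29, where all genes had 0.05). The effective lengths of the 5 ran from 253 to 1400 bases, and all tested genes under 1000 bases had a median of -0.20. Once each library was adjusted for length and GC content, the shared subunits' median was -0.20, and 1 of them, Polr2f, was called. Polr2f, a small subunit needed for polymerase assembly, had 58.2, 67.0 and 68.6 CPM in circSlc17a5 libraries 1, 2 and 3, against 78.6, 109 and 85.1 in the controls. All 3 circSlc17a5 values lay below all 3 control values. The means were 64.6 ± 5.61 CPM in circSlc17a5 cells and 90.8 ± 15.8 CPM in control cells (SD, n = 3 each), a log2 fold change of -0.49 (SE 0.118), 1.41-fold lower, with an edgeR adjusted p of 0.0204.

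Polr2h, another shared subunit, had 17.2, 18.9 and 17.7 CPM in circSlc17a5 cells, against 19.2, 28.1 and 25.8 in control cells. Its circSlc17a5 values lay close together, while control replicate 1 lay near them and the other 2 controls above. The log2 fold change was -0.44 (SE 0.132, edgeR adjusted p 0.0391). Polr2e (log2 fold change -0.28), Polr2l (-0.40) and Polr2k (0.13) were not called by edgeR, where Polr2l had an adjusted p of 0.0592; DESeq2 called Polr2l lower (adjusted p 0.0282).

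Of the 8 genes of polymerase II alone 1 rose and none fell, 12.5% called, against 22.0% of all tested genes. By edgeR 1 lower gene had an unadjusted p under 0.05, and DESeq2 and limma-voom called none lower. Polr2a, which carries the catalytic centre and the C-terminal repeat tail, had 95.4, 82.3 and 83.5 CPM in circSlc17a5 cells, against 78.1, 64.7 and 57.9 in control cells. Every circSlc17a5 library was above every control, the nearest pair being 82.3 and 78.1. The means were 87.1 ± 7.24 CPM in circSlc17a5 cells and 66.9 ± 10.3 CPM in control cells (SD, n = 3 each), 1.30-fold higher, with a log2 fold change of 0.38 (SE 0.109, edgeR adjusted p 0.0353). Polr2b, the other large core subunit, had a log2 fold change of 0.21 and an adjusted p of 0.212. The remaining 6 subunits (Polr2c, Polr2d, Polr2g, Polr2i, Polr2j and the associated factor Polr2m) lay between -0.18 and 0.07. Levels per length differed widely within the complex: Polr2a, the lowest, averaged 13.9 FPKM in circSlc17a5 cells and 10.1 FPKM in control cells, and Polr2j, the highest, 173 FPKM in circSlc17a5 cells and 168 FPKM in control cells.

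No subunit of polymerase I alone was called by edgeR, DESeq2 or limma-voom. By edgeR 2 of the 3 had an unadjusted p under 0.05, as had 41 of all 101 tested members. Polr1a, the catalytic subunit, had 55.6, 49.7 and 46.0 CPM in circSlc17a5 cells, against 52.0, 42.4 and 41.7 in control cells, and the groups overlapped. Polr1b, the second-largest subunit, had 14.0, 14.6 and 12.8 CPM in circSlc17a5 cells, against 16.3, 16.1 and 17.3 in control cells. The Polr1b groups did not overlap, but its log2 fold change of -0.26 had an adjusted p of 0.0691. Polr1e, the other member, was at -0.32.

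Polymerases I and III share 2 further members, and neither was called by edgeR, DESeq2 or limma-voom. Both had an unadjusted edgeR p under 0.05. Polr1d was the most abundant of all members at 390 FPKM, with a log2 fold change of -0.23 (edgeR adjusted p 0.0783). Its 2 main transcripts, with an estimated 44.5% and 47.0% of the counts, were at -0.05 and 0.02. A predicted transcript with 7.93% had 0, 47 and 0 counts in circSlc17a5 libraries, against 84, 1135 and 1013 in control libraries. None of the 3 was called. Polr1c was at 0.22 (edgeR adjusted p 0.115), with 74.5, 73.7 and 72.6 CPM in circSlc17a5 cells, against 73.2, 57.6 and 59.4 in control cells; control replicate 1 lay with the circSlc17a5 libraries.

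Of the 10 subunits of polymerase III alone none was called by edgeR or limma-voom. DESeq2 called 1, Polr3gl, lower, and 2 had an unadjusted p under 0.05. The catalytic Polr3a had 22.6, 20.5 and 17.5 CPM in circSlc17a5 cells, against 19.0, 17.9 and 17.5 in control cells. Polr3b, the second-largest subunit, had a log2 fold change of -0.07 and Polr3c, of the initiation subcomplex, of -0.09. Polr3gl, one of a pair of alternative subunits, had 39.5, 42.4 and 42.1 CPM in circSlc17a5 cells, against 43.1, 56.9 and 54.1 in control cells (log2 fold change -0.31, edgeR adjusted p 0.0542), and its partner Polr3g was at 0.14.

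SL1, the TBP complex that places polymerase I on the ribosomal DNA promoter, had 4 members, and edgeR, DESeq2 and limma-voom called none; 1, Taf1c, had an unadjusted p under 0.05. Taf1d was the most abundant at 70.3 FPKM, with a log2 fold change of -0.16, and Taf1b was at 0.26. Taf1c was at -0.44 (edgeR adjusted p 0.0765), from 4.92, 6.66 and 5.39 CPM in circSlc17a5 cells, against 6.92, 9.19 and 6.95 in control cells, and Taf1a at -0.10.

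Within TFIID, which recognises polymerase II promoters, 1 of 15 tested members rose and 2 fell. The members' median log2 fold change was -0.04 (with FPKM 0.02, where all genes had 0.05). Taf9, a histone-fold subunit found in TFIID and in the coactivator SAGA, had the smallest adjusted p of all members. It had 79.6, 84.6 and 84.3 CPM in circSlc17a5 libraries 1, 2 and 3, against 66.9, 57.1 and 62.7 in control libraries. No circSlc17a5 library fell within the control range. The means were 82.9 ± 2.78 CPM in circSlc17a5 cells and 62.3 ± 4.92 CPM in control cells (SD, n = 3 each), 1.33-fold higher, with a log2 fold change of 0.41 (SE 0.0785, edgeR adjusted p 0.00923).

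Taf9 shares its locus with Ak6, an adenylate kinase gene on the same strand whose listed span covers it, so reads could be assigned to either. Ak6 itself had a log2 fold change of -0.10 (edgeR adjusted p 0.509). The processed pseudogene Taf9-ps, on chromosome 4, was below the filter.

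Taf11 and Taf13, whose proteins pair through their histone folds, both fell. Taf11 had 23.4, 22.8 and 22.7 CPM in circSlc17a5 cells, against 30.9, 28.0 and 28.3 in control cells. Its groups were each tight and did not meet, and the log2 fold change was -0.34 (SE 0.0821, edgeR adjusted p 0.0207). The span of Taf11 overlaps Anks1 on the opposite strand, which had a log2 fold change of 0.32 and was not called (edgeR adjusted p 0.0582); no source used here says whether counting used strand. Taf13 had 19.7, 22.7 and 22.0 CPM in circSlc17a5 cells, against 24.7, 29.2 and 26.1 in control cells (log2 fold change -0.31, SE 0.097, edgeR adjusted p 0.0439). When each library was adjusted for length and GC content, Taf11 was still called and Taf13 was not. With single libraries left out, Taf13 reached an edgeR adjusted p of 0.165 and Taf11 of 0.0757.

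Neither Tbp nor Taf1, the largest TFIID subunit, passed the threshold in edgeR. Tbp had 42.9, 43.3 and 45.9 CPM in circSlc17a5 cells, against 41.6, 35.1 and 36.2 in control cells. The groups did not overlap, the nearest values being 42.9 and 41.6, and the log2 fold change of 0.22 had an edgeR adjusted p of 0.0851. Taf1 had 64.8, 50.5 and 49.9 CPM in circSlc17a5 cells, against 47.5, 38.1 and 45.3 in control cells (log2 fold change 0.34, edgeR adjusted p 0.0647, DESeq2 adjusted p 0.0421). Of the other TFIID members Taf4b (0.34) and Taf5 (-0.30) lay farthest from 0, and Taf2, Taf3, Taf4, Taf6, Taf7, Taf8, Taf10 and Taf12 lay between -0.14 and 0.18. Taf10 was the most abundant at 351 FPKM. The SAGA-type relatives Taf5l and Taf6l were at 0.03 and -0.21, and Taf15, an RNA-binding protein, at 0.07.

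**Figure D2:**
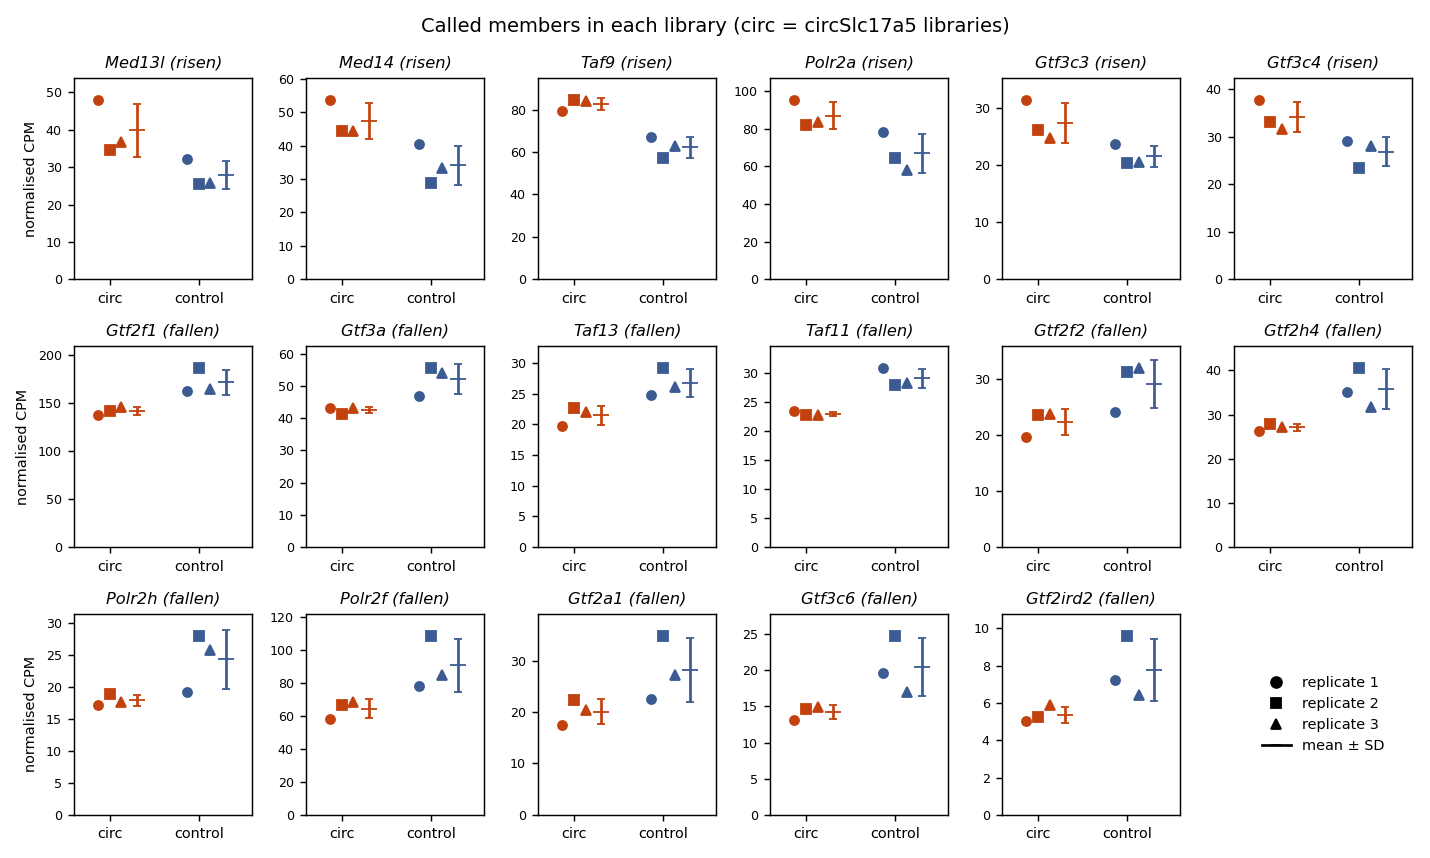
Normalised CPM of the 17 called members in each library (points; shape gives the replicate number, colour the group) with group mean and SD beside them, circSlc17a5 left of control; each vertical axis starts at 0. In all 17 panels the 3 circSlc17a5 libraries lie wholly above or wholly below the 3 controls.

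Among TFIIA, TFIIB, TFIIE and TFIIF, edgeR called 3 of 7 members fallen and none risen, 42.9%, against 22.0% of all tested genes. DESeq2 and limma-voom each called 1 risen, Gtf2e1. The median log2 fold change was -0.22 (with FPKM -0.14, where all genes had 0.05). After adjustment of each library for length and GC content the median was -0.08. Then 1 member was called risen and 1, Gtf2a1, fallen, and neither TFIIF subunit was called. Gtf2f1, the large subunit of TFIIF, which escorts polymerase II to the promoter, had 138, 142 and 146 CPM in circSlc17a5 cells, against 163, 187 and 165 in control cells. The means were 142 ± 4.21 CPM in circSlc17a5 cells and 172 ± 13.3 CPM in control cells (SD, n = 3 each), 1.21-fold lower (log2 fold change -0.28, SE 0.076, edgeR adjusted p 0.0305). Both groups were narrow and apart.

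Gtf2f2, the small TFIIF subunit, fell as well, at 19.7, 23.5 and 23.7 CPM in circSlc17a5 cells, against 24.1, 31.2 and 32.0 in control cells. Control replicate 1 lay just above the highest circSlc17a5 value, and the log2 fold change was -0.38 (SE 0.123, edgeR adjusted p 0.0473). The gene overlaps Kctd4 on the other strand, which had at most 0.04 FPKM. Gtf2a1, the precursor of the large TFIIA subunits that steady TBP on DNA, had 17.5, 22.3 and 20.4 CPM in circSlc17a5 cells, against 22.6, 34.9 and 27.2 in control cells (log2 fold change -0.49, SE 0.15, edgeR adjusted p 0.0415). Here too the controls spread more widely than the circSlc17a5 libraries.

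Of the factors edgeR did not call, Gtf2b, the single TFIIB subunit that bridges TBP and polymerase II, was at -0.22 (edgeR adjusted p 0.0736). Gtf2e1, the large TFIIE subunit, was at 0.51, with an adjusted p of 0.0581 in edgeR, 0.0297 in DESeq2 and 0.0473 in limma-voom; control replicate 1, at 15.9 CPM, lay among the circSlc17a5 values of 19.6, 16.4 and 15.6, while the other controls had 9.43 and 10.8. Gtf2a2 and Gtf2e2 were at -0.05 and -0.09.

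TFIIH opens promoter DNA and also serves nucleotide excision repair. Of its 5 members named Gtf2h, only Gtf2h4 was called. It had 26.3, 27.8 and 27.2 CPM in circSlc17a5 cells, against 35.0, 40.6 and 31.6 in control cells, and every control was higher. The log2 fold change was -0.40 (SE 0.1, edgeR adjusted p 0.0242). The other 4 lay between -0.14 and 0.18.

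In the TFII-I family, DNA-binding proteins that keep a general-factor name, Gtf2ird2 fell. It had 5.03, 5.22 and 5.86 CPM in circSlc17a5 cells, against 7.22, 9.61 and 6.42 in control cells (log2 fold change -0.53, SE 0.167, edgeR adjusted p 0.0462). This is a low level, 1.99 FPKM on average, and the gene resembles Gtf2i in part of its sequence, so the split of reads between them is uncertain. Gtf2i and Gtf2ird1 were at -0.07 and 0.10 and were not called.

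The polymerase III factors held 2 risen and 2 fallen genes among 7 members, 57.1% called, against 22.0% of all tested genes. Their median log2 fold change was 0.04. Gtf3c3 and Gtf3c4, subunits of TFIIIC, rose. Gtf3c3 had 31.4, 26.1 and 24.7 CPM in circSlc17a5 cells, against 23.7, 20.4 and 20.5 in control cells (log2 fold change 0.35, SE 0.111, edgeR adjusted p 0.0475). Gtf3c4 had 37.7, 33.0 and 31.6 CPM in circSlc17a5 cells, against 29.0, 23.4 and 28.1 in control cells (log2 fold change 0.34, SE 0.106, edgeR adjusted p 0.0428). In both, circSlc17a5 replicate 1 was the highest library.

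Gtf3a, the zinc-finger protein TFIIIA that binds the 5S ribosomal RNA gene, and Gtf3c6, the smallest TFIIIC subunit, fell. Gtf3a had 43.1, 41.4 and 43.3 CPM in circSlc17a5 cells, against 47.0, 55.7 and 54.1 in control cells (log2 fold change -0.29, SE 0.0846, edgeR adjusted p 0.035). It overlaps Mtif3 on the opposite strand, which had a log2 fold change of -0.10 and was not called. Gtf3c6 had 13.1, 14.7 and 14.9 CPM in circSlc17a5 cells, against 19.6, 24.8 and 17.0 in control cells (log2 fold change -0.52, SE 0.137, edgeR adjusted p 0.0263). TFIIIC thus held members past the threshold in both directions, as TFIID did, in the fit without adjustment for length and GC content. With that adjustment Gtf3c6 was the only member of this group still called. Gtf3c1, the largest TFIIIC subunit and its B-box-binding part, was at 0.16 (edgeR adjusted p 0.148), Gtf3c2 at 0.04 and Gtf3c5 at -0.23.

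In Mediator 2 of 29 tested members rose and none fell, 6.9% called, against 22.0% of all tested genes. The median log2 fold change was -0.03 (with FPKM 0.01, where all genes had 0.05). DESeq2 and limma-voom also called 2 risen and none fallen, and 5 lower members had an unadjusted p under 0.05. Med14, the scaffold that joins the head, middle and tail modules, had 53.7, 44.3 and 44.5 CPM in circSlc17a5 cells, against 40.4, 28.9 and 33.2 in control cells. The means were 47.5 ± 5.34 CPM in circSlc17a5 cells and 34.2 ± 5.79 CPM in control cells (SD, n = 3 each), 1.39-fold higher (log2 fold change 0.48, SE 0.125, edgeR adjusted p 0.027). Replicate 1 was the highest library in each group.

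Med13l, a subunit that ties the dissociable kinase module to the Mediator core, had 48.0, 34.7 and 36.8 CPM in circSlc17a5 cells, against 32.1, 25.6 and 25.7 in control cells. The means were 39.8 ± 7.12 CPM in circSlc17a5 cells and 27.8 ± 3.77 CPM in control cells (SD, n = 3 each), 1.43-fold higher (log2 fold change 0.52, SE 0.135, edgeR adjusted p 0.0261), and circSlc17a5 replicate 1 stood above the other libraries. Its paralog Med13 was at 0.04 and Med12, which activates the module's kinase, at -0.02.

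None of the 25 head, middle and tail members was called by edgeR, DESeq2 or limma-voom; by edgeR 7 of them had an unadjusted p under 0.05. In the head module (Med6, Med8, Med11, Med17, Med18, Med20 and Med22) the log2 fold changes lay between -0.19 and 0.24, with Med11 at -0.03 and Med20 at 0.07. In the middle module (Med4, Med7, Med9, Med10, Med19, Med21, Med26, Med31 and Med1) they lay between -0.27 and 0.20. Med1, the subunit that nuclear receptors contact, had 63.1, 55.8 and 56.3 CPM in circSlc17a5 cells, against 49.4, 55.0 and 48.6 in control cells; the groups did not overlap, and at 0.20 the adjusted p was 0.109. Med10 and Med21, the most abundant of that module, were at -0.16 and -0.03. In the tail and among the subunits of no fixed module (Med15, Med16, Med23, Med24, Med25, Med27, Med28, Med29 and Med30) the range was -0.23 to 0.26, with Med30 at -0.08 and Med25 at -0.23.

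The remaining 4 members were too low to test. Taf9b, an X-linked paralog of Taf9, had 4, 1 and 0 counts in circSlc17a5 libraries, against 2, 1 and 1 in control libraries. Taf7l, a germ-cell relative of Taf7, had 0, 0 and 1 counts in circSlc17a5 libraries, against 0, 1 and 0 in control libraries. Med12l had 7, 8 and 7 counts in circSlc17a5 libraries, against 5, 3 and 3 in control libraries, and Taf9-ps had a mean of 0.07 FPKM. The other 101 members lay between 1.55 FPKM (Taf4b) and 390 FPKM (Polr1d), with a median of 18.0, above the median of 10.9 over all tested genes.

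Several subunits have a paralog that can take their place, and the balance within such pairs was measured as a share of the pair's FPKM. Of Med13 plus Med13l, Med13 made up 69.0, 73.2 and 73.6% in circSlc17a5 cells, against 74.6, 80.1 and 79.3% in control cells. The groups did not overlap, and the difference of -6.08 points had a two-sided exact permutation p of 0.1, the smallest that 3 against 3 libraries allow (0.3 after Benjamini-Hochberg adjustment over 9 pairs). Taf5 made up 31.4 ± 0.382% of Taf5 plus Taf5l in circSlc17a5 cells and 36.6 ± 3.81% in control cells (SD, n = 3 each; exact permutation p 0.1, adjusted 0.3). Med12 made up 98.3 ± 0.307% of Med12 plus Med12l in circSlc17a5 cells and 99.0 ± 0.179% in control cells (SD, n = 3 each; exact permutation p 0.1, adjusted 0.3). For Polr3g with Polr3gl the Polr3g share was 16.7 ± 1.54% in circSlc17a5 cells and 12.8 ± 3.32% in control cells, and the groups overlapped (SD, n = 3 each; exact permutation p 0.3). Shares within the pairs of Taf4, Taf6, Taf7 and Taf9 and the pair Gtf2ird1 with Gtf2i also overlapped. No pair can pass a threshold of 0.05 in this design.

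The direction of a member went with the length of its transcript. Of the 6 risen genes 5 had an effective length (implied by the deposited counts and FPKM) of at least 3500 bases, the exception being Taf9 at 951 bases; of the 11 fallen genes 8 were under 2000 bases. Members of at least 3500 bases had a median log2 fold change of 0.16 (26 members, 5 risen, 1 fallen), and those of 1000 to 2000 bases of -0.16 (28 members, 0 risen, 6 fallen). The same slope was seen over all tested genes, whose medians were 0.14 and -0.12 in these classes. Spearman's rho between length and log2 fold change was 0.38 over the 101 members and 0.42 over 11504 genes, as a description across genes, which share the same 6 libraries.

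With an offset for GC content and length in each library, the members' medians in those 2 classes were 0.04 and -0.03, and 7 members rose and 8 fell, 14.9% of the 101 against 21.6% of all 11504 genes in that fit. Of the 17 genes called without the offset, 8 were still called: Taf9 (log2 fold change 0.56), Med14 (0.29) and Med13l (0.33) rose, and Polr2f (-0.20), Taf11 (-0.29), Gtf2a1 (-0.68), Gtf2ird2 (-0.55) and Gtf3c6 (-0.53) fell. Polr2a (0.21, edgeR adjusted p 0.0979), Gtf3c3 (0.18), Gtf3c4 (0.15), Polr2h (-0.24), Taf13 (-0.20), Gtf2f1 (-0.14), Gtf2f2 (-0.26), Gtf2h4 (-0.24) and Gtf3a (-0.09) were no longer called. Those called by edgeR with the offset and not without it were Polr1c, Polr3d, Tbp and Gtf2e1, higher, and Polr1b, Taf5 and Med24, lower; Tbp then had a log2 fold change of 0.30 and Polr1b of -0.36. All 17 genes kept their direction.

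**Figure D3:**
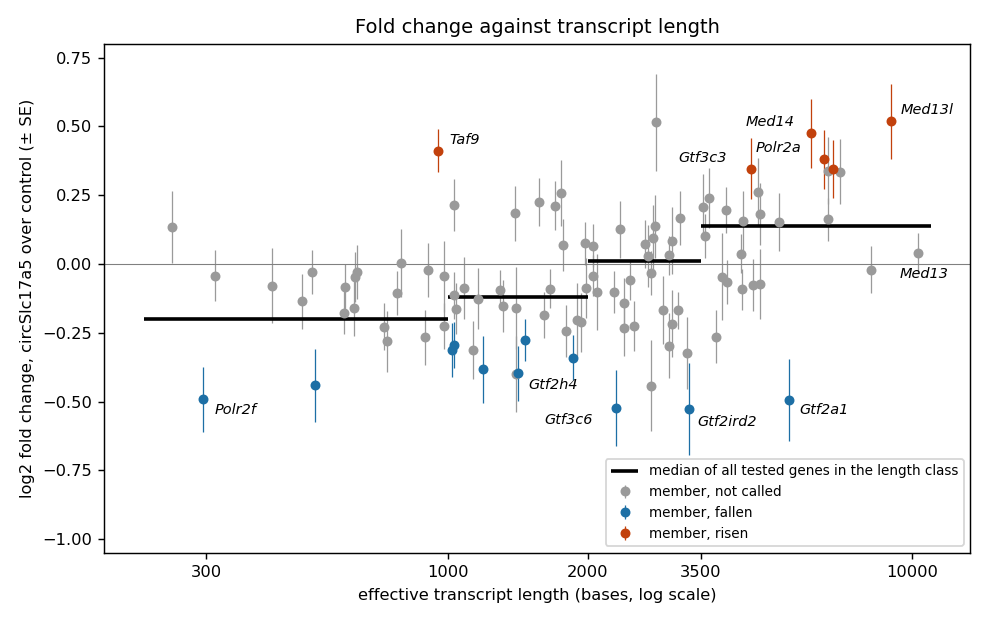
Log2 fold change, circSlc17a5 over control (± SE), of the 101 tested members against effective transcript length in bases on a log axis; black lines give the median of all tested genes in 4 length classes. The risen members other than Taf9 lie at or beyond 3500 bases, where the median of all genes is 0.14, and most fallen members below 2000 bases.

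Most calls depended on which libraries entered. With control replicate 1 left out, 17 members rose and 24 fell, and the 17 genes called with all libraries were among them. Of 11846 genes tested in that fit, 2424 rose and 2275 fell. Without control replicate 1 and circSlc17a5 replicate 2, the libraries with the high mural and fibroblast markers, 12 members rose and 18 fell. Of 11772 genes tested without that pair, 1951 rose and 1729 fell. With any single library other than control replicate 1 left out, 1 or 2 members rose and 0 to 2 fell. Only Taf9 was called in all 6 of these fits, its edgeR adjusted p lying between 0.00116 and 0.0485. Med13l was lost without control replicates 2 and 3 and circSlc17a5 replicate 1, and Polr2f without control replicate 3 and circSlc17a5 replicates 1 and 2.

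Taf11 was also called without control replicate 2, and Gtf2h4 and Gtf3c6 without control replicate 3. The other 11 genes (Polr2a, Med14, Gtf3c3, Gtf3c4, Polr2h, Taf13, Gtf2a1, Gtf2f1, Gtf2f2, Gtf2ird2 and Gtf3a) were called in 1 of the 6 fits, the one without control replicate 1; Polr2a reached an edgeR adjusted p of 0.142 and Med14 of 0.118. The sign of all 17 was the same in every one of these fits. Their groups of libraries did not overlap, so leaving out a library could hardly have changed a sign. For all genes the counts moved likewise, between 346 and 2424 risen and between 116 and 2275 fallen.

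**Figure D4:**
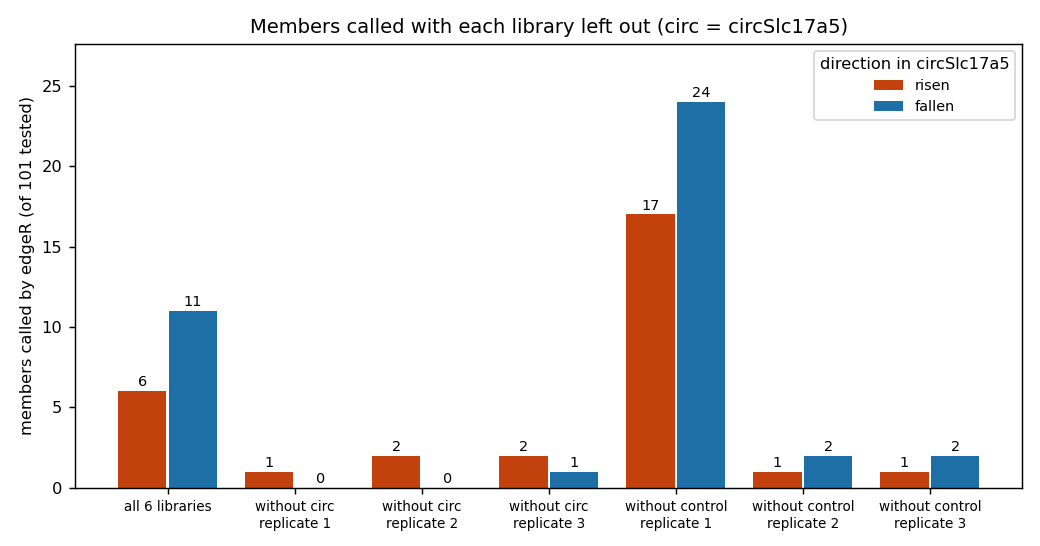
Number of the 101 tested members that rose or fell in circSlc17a5 cells (edgeR adjusted p under 0.05) with all 6 libraries and with each library left out in turn. The bars stand at 17 risen and 24 fallen without control replicate 1 and at no more than 2 of either without any other library.

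Genes of the same machinery whose symbols the rule does not take were followed in 10 lists of 85 symbols, 84 of them in the table and 83 tested. There 7 rose and 12 fell, 22.9%, beside the background of 22.0% given above, with a median log2 fold change of -0.05. The list of pausing and elongation factors, which act after initiation, held 3 risen and 6 fallen genes of 24, 37.5%. Its risen genes had effective lengths of 3240 to 9570 bases and its fallen genes of 1160 to 4390 bases. The part of length in the calls of these 10 lists was not tested. Ell2, a subunit of the super elongation complex, rose (57.5 ± 2.77 CPM in circSlc17a5 cells and 42.5 ± 4.23 CPM in control cells, SD, n = 3 each; log2 fold change 0.44, edgeR adjusted p 0.0122), as did its scaffold Aff4 (0.48). Paf1, of the Paf complex, fell (22.7 ± 1.03 CPM in circSlc17a5 cells and 31.3 ± 3.24 CPM in control cells, SD, n = 3 each; log2 fold change -0.46, edgeR adjusted p 0.0127), as did Larp7, which holds the 7SK RNA (-0.39).

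Of 12 further SAGA subunits Kat2b, an acetyltransferase, rose (0.43), and Tada1 (-0.45) and Supt3 (-0.33) fell. Tada1 was the one gene of these lists still called with each of the 6 libraries left out in turn (edgeR adjusted p at most 0.042). Among 6 further polymerase I genes the termination factor Ttf1 rose (0.61), and the subunits Cd3eap (-0.43) and Znrd1 (-0.30) fell. Among 13 further polymerase III genes Zfp143, an activator of small nuclear RNA genes, rose (0.37), and Snapc4, of the complex that binds their promoters, fell (-0.30). Of the remaining TFIIH subunits Ccnh, the cyclin of its kinase, fell (-0.23), and of the regulators of TBP the repressor Dr1 rose (0.38). Of the rest of the Mediator kinase module, the enzymes that modify the polymerase II tail, the polymerase assembly factors and the mitochondrial transcription genes, 19 in all, edgeR called none.

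Counts per transcript gave no call. Of 349 transcripts of the members 246 were tested with edgeR, 0 passed an adjusted p under 0.05 and 23 had an unadjusted p under 0.05, 9.35% against 14.7% of all 28267 transcripts tested. Over all transcripts 2 passed. In 36 members more than 1 transcript held above 10% of the gene's counts. In Polr1a a predicted transcript with 50.8% of the counts had 250, 347 and 297 counts in circSlc17a5 libraries, against 471, 611 and 533 in control libraries (log2 fold change -0.91, unadjusted edgeR p 0.00359, adjusted 0.171). The other listed Polr1a transcript had 744, 519 and 488 counts in circSlc17a5 libraries, against 415, 91 and 175 in control libraries. The gene's total therefore differed less than either transcript did, though neither was called. The split of counts between transcripts is estimated and uncertain. The predicted transcript also had the smallest unadjusted edgeR p of the 246 tested. The main Taf9 transcript held 92.7% of the gene's counts and had a log2 fold change of 0.41 (edgeR adjusted p 0.176).

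In the authors' deposited table of their DESeq2 comparison, 5 members were higher and 10 lower at a q under 0.05, 14.3% of the 105, against 1216 genes higher and 1093 lower, 15.0% of 15383. That table gave Taf9 a log2 fold change of 0.41 and Polr2a of 0.38. Taf13 (DESeq2 q 0.066), Gtf3c3 (0.0635) and Gtf2ird2 (0.0764), which edgeR called, were not under 0.05 there. Polr2l, which edgeR did not call, was lower there (DESeq2 q 0.0428).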

How the data were processed

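Libraries were prepared with a SMARTer mRNA-Seq kit from TRIzol-extracted total RNA, per the labels' protocols. HISAT2 2.0.4, Bowtie2 2.2.5 and RSEM 1.2.12 are named in the submitters' processing notes, without roles; no source used here gives the genome build, strand setting or filters. The authors deposited expected counts, estimated per gene and transcript, of which 9.05% to 10.78% of gene values per library were not whole, with FPKM values scaled by length and library total. The TPM values deposited by the authors summed to between 999984 and 999989 and were not tested. Per the file headers, a further table deposited by the authors holds log2 fold changes, p-values and q-values from DESeq2.

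Groups and replicate numbers came from the sample titles. Expected counts were rounded, filtered with filterByExpr, scaled by TMM and tested between 3 circSlc17a5 and 3 control libraries, over all genes, with edgeR 4.0.16 (R 4.3.3; quasi-likelihood F test, two-sided, Benjamini-Hochberg adjustment, threshold 0.05). The fold changes are circSlc17a5 over control; each SE is the size of the log2 fold change over the root of its F value. The procedure was tested on simulated data. Alternatives were DESeq2 size factors, no filter, DESeq2 1.42.0, limma-voom and limma-trend (limma 3.58.1) on log2(FPKM + 1) and log2(FPKM + 0.1), each library left out, control replicate 1 and circSlc17a5 replicate 2 left out together, a replicate block, and an offset smoothed on GC content and length per library. GC content came from GENCODE M21 transcripts and effective length from deposited counts over FPKM at 0.1 FPKM or more.

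Per complex, members are named by smallest adjusted p, at most 3 risen and 3 fallen, or the 2 most abundant where none was called, with fixed core subunits and paralog pairs; values of other members were added for completeness. Per outside list up to 2 risen and 2 fallen genes are named. The members and lists were chosen with earlier results of these data known.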

Additional observations from a re-analysis of the deposited data

How the results depend on the processing

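All 17 called members kept their direction under all alternatives. Where libraries were left out, this followed from groups that did not overlap. All 17 stayed called with DESeq2 size factors, with no filter, with DESeq2 and with the replicate block, 14 with limma-voom, 6 with FPKM, 8 with the GC content and length offset, and 11 with the offset and the block. Members risen numbered 12 without control replicate 1 and circSlc17a5 replicate 2, 13 with the replicate block, 11 with the block and the offset, and 1 to 17 over single libraries left out. Members fallen numbered 2 with log2(FPKM + 1) and 2 with log2(FPKM + 0.1), 18 without that pair, 23 with the replicate block, and 0 to 24 over single libraries left out. Over all genes 676 and 687 fell with FPKM at pseudocounts of 1 and 0.1, and 2324 rose and 2105 fell with the replicate block; with single libraries left out 346 to 2424 rose and 116 to 2275 fell. Of all called genes 53.6% rose with counts and 68.7% with log2(FPKM + 1). Other machinery genes risen numbered 15 without the pair, 16 with the replicate block, 11 with the block and the offset, and 0 to 17 with single libraries left out; 6 fell with log2(FPKM + 1), and 1 to 18 with single libraries left out. Libraries with the same number did not all deviate together (correlations 0.219, 0.068 and 0.065), and circSlc17a5 replicate 3 correlated best with control replicate 2 (0.31), so the pairing rests on the numbers alone. No transcript of a member was called under any setting run.

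Uncalled members near 0 changed sign. With FPKM, which moved the median of all genes to 0.05 (pseudocount 1) and 0.06 (pseudocount 0.1), the log2 fold changes turned to -0.01 and -0.02 for Polr3a, 0.00 for Polr3b, 0.09 for Polr3c, 0.02 for Taf6, 0.01 for Gtf2i, 0.05 for Med11, 0.05 for Med21, and 0.04 and 0.06 for Med12. With the offset they were 0.03 for Taf6, -0.02 for Taf7, 0.20 for Med11, 0.06 for Med10, 0.11 for Med21, 0.09 for Med30 and -0.22 for Med13, which with the block as well stayed at -0.22 and was then called (edgeR adjusted p 0.0186); Med11 was then at 0.21. Without the pair they were 0.01 for Polr3b, 0.02 for Gtf2i, 0.01 for Med11 and 0.03 for Med12. With single libraries left out Polr3b ran between -0.17 and 0.04, Taf5l between -0.07 and 0.09, Taf15 between -0.01 and 0.15, Gtf2i between -0.10 and 0.01, Med11 between -0.10 and 0.03 and Med12 between -0.04 and 0.01. The cause was not tested. Library totals from 16848513 counts and 3 libraries a group limit all calls.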
